A study of Mus musculus with 16 samples.

Results

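The genes described here code for the proteins of the ribosome and for the factors that start translation. They were the protein-coding rows of the deposited table whose gene names begin with Rps, Rpl, Mrps, Mrpl or Eif and then a digit, without the ribosomal S6 kinases (Rps6k), and they numbered 35 of the 2438 genes listed there. By name, 18 belonged to the cytosolic ribosome, 6 to the mitochondrial ribosome and 11 to the Eif genes. The study compared RNA from the duodenum of mice on a high fat diet, with 1 library per sample. In 9 samples both Ephb4 alleles were floxed (genotype fl/fl, called flox here, numbered 1 to 7, 9 and 10). In the other 7 the gene was deleted in intestinal epithelial cells (Ephb4-IKO, called KO here, numbered 1 to 5, 7 and 8). Every mouse was 8 weeks old at the start of the diet and received it for 19 weeks, so no sample shows the genotypes on another diet. The sample labels name duodenal epithelium, while the design text says that the proximal small intestine was taken. Which Cre or other recombinase made the deletion is not stated in the sources used here. Nothing in the labels ties each library to its own mouse, so p-values measure the spread between these libraries.

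The cytosolic ribosome makes nearly all proteins of the cell from a small and a large subunit, and its proteins are produced together in amounts that follow the growth of the cell. The mitochondrial ribosome is a separate machine that translates the messages of mitochondrial DNA. Initiation factors load the small subunit onto the message: eIF2 brings the initiator tRNA, eIF2B recharges eIF2 with GTP, eIF3 is a large scaffold on the small subunit, and the eIF4 factors bind the cap and unwind the leader. In the intestine, translation capacity is high in dividing crypt cells.

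The deposited table held only genes with an adjusted p under 0.05 between these same libraries, 2438 of the 16488 genes over which the authors adjusted (14.8%), of which 1150 were higher in KO (6.97%) and 1288 lower (7.81%). Each member was therefore called by the authors before it was counted here, and the counts and directions below describe the listing. A gene that is not listed may have missed that threshold or may not have been tested. Values are normalised counts, that is reads divided by 1 size factor per library, and each library held between 3592468 and 5316273 reads in these genes. Ephb4 (chr5:137350109-137378669, GRCm38, plus strand) was 5.76-fold lower in KO, at 36.6 ± 21.7 (SD, n = 7) against 211 ± 94.4 (SD, n = 9), with no overlap. Its log2 difference was -2.51 (two-sided exact permutation p = 8.74e-05, the smallest value that 9 against 7 libraries can give). KO 1 held the most Ephb4 of the KO libraries, 84.7. The 5 flox libraries numbered 4, 6, 7, 9 and 10 carried transcripts of the exocrine pancreas, with 6976 to 147123 normalised counts over 21 listed markers, against 332 to 461 in the other 4 flox libraries and 329 to 1713 in KO. Of 20 enterocyte markers 8 were listed, all lower in KO, as were 712 of the 768 listed genes whose mean reached 1000. The marker means on the log2 scale were 15.54 to 16.07 in flox and 15.03 to 15.54 in KO, so enterocyte transcripts were present in every library. The part of the intestine and the purity of the epithelium were not tested.

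In the KO libraries the listed cytosolic ribosomal proteins were nearly all higher and the listed Eif genes lay on both sides. Of 88 cytosolic ribosomal protein genes in the annotation 18 were listed (20.5%), 17 higher and 1 lower. Of 78 mitochondrial ribosomal protein genes 6 were listed (7.7%), 3 higher and 3 lower, and of 55 Eif genes 11 were listed, 5 higher and 6 lower. All 4 listed eIF3 genes were higher, while the 3 listed Eif4 genes and Eif6 were lower; with quantile normalisation the 3 Eif4 genes were above 0 and 9 of the 11 Eif genes were higher. Whether the complexes differ was not tested. By the fold changes of the authors' deposited table, the median on the log2 scale was 0.48 over the cytosolic members, -0.01 over the mitochondrial members and -0.23 over the Eif genes, beside -0.23 over all listed genes. In limma the medians of the mitochondrial and Eif members were -0.01 and -0.23, and without Mrps36 and Eif1ad, which are no ribosomal subunit and no standard initiation factor, they were 0.31 and 0.04.

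**Figure D1:**
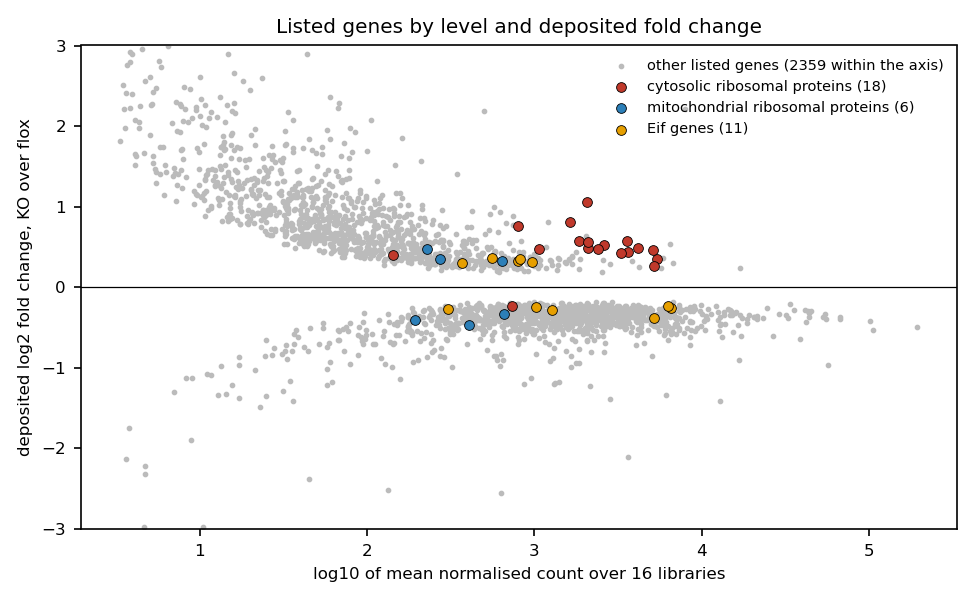
The authors' deposited log2 ratio of KO over flox is plotted against the log10 of the mean normalised count, for the listed genes (grey) and the members by family (colours); 44 listed genes lie outside the vertical axis. At high levels nearly all grey points are below 0, while the 15 cytosolic ribosomal proteins whose mean reached 1000 are above it and 5 Eif genes of that level are below it; with quantile normalisation Eif4g1, Eif1ad, Eif4e2 and Eif4h were above 0.

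Abundance and direction went together among the listed genes, and the cytosolic ribosomal proteins lay on the other side of that pattern. The table held 768 genes whose mean reached 1000 normalised counts, 56 higher in KO (7.3%) and 712 lower. The 15 cytosolic ribosomal proteins at that level were all among the 56. The 5 Eif genes at that level (Eif4g1, Eif4h, Eif6, Eif4e2 and Eif1ad) were all among the 712 lower genes. Under 200 normalised counts 863 of 991 listed genes were higher (87.1%). Between 200 and 1000 normalised counts 231 of 679 listed genes were higher (34.0%), and there 5 of 6 Eif genes and 3 of 5 mitochondrial members were higher. The direction of the listed Eif genes thus went with their level as well as with their complex.

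A fit of these data with limma, on log2(normalised count + 1) and adjusted over 16488 genes, called 1269 of 2339 listed genes (54.3%), 449 of them higher (19.2%) and 820 lower (35.1%). It called 13 of the 18 cytosolic members (12 higher, 1 lower), 4 of the 6 mitochondrial members (2 higher, 2 lower) and 10 of the 11 Eif genes (5 higher, 5 lower). The listing had fixed most of these calls, and nothing further is read from their number. With TMM scaling the median log2 difference of all 2339 genes was -0.11 in place of -0.25, and 723 of them were called higher and 189 lower. The calls in the families were 17 higher and 0 lower, 3 higher and 0 lower, and 5 higher and 0 lower in the same order. Quantile normalisation, which moved that median to 0.01, called 192 of all 2339 genes higher and 163 lower. Among them were 16 higher and 0 lower cytosolic members, 1 and 1 mitochondrial members, and 5 higher and 0 lower Eif genes. Both scalings were computed over listed genes alone, which all differed between the groups, and they moved the median of these genes toward 0. Lower calls fell over all listed genes too, so their loss among the Eif genes is no result about that family. For the same reason these scalings cannot show whether the Eif genes were lower. Of the higher cytosolic members all 17 were above 0 in each of these fits.

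Rps12, a small-subunit protein, had the largest log2 difference of the 35 members in limma. Its flox libraries held 996.9, 1784.0, 892.6, 1235.9, 1698.9, 1514.6, 1331.1, 2015.9 and 1235.2 normalised counts, in the order of their numbers. The KO libraries held 2736.2, 2415.1, 3168.2, 2711.9, 3882.3, 3065.0 and 2614.5. The lowest KO library, KO 2, lay above the highest flox library, flox 9, so the groups did not overlap. Of all listed genes 47 were higher in KO without overlap (1.93%), and Rps12 was the 1 cytosolic member among them. The mean was 1412 ± 372 (SD, n = 9) in flox and 2942 ± 488 (SD, n = 7) in KO, a fold of 2.08, or 2.19 against the 4 flox libraries without pancreatic transcripts. The log2 difference was 1.09 ± 0.15 (SE), with an adjusted p of 0.00117 in limma. Rps12 was also the 1 member among the 11 listed genes that limma still called when the 5 flox libraries with pancreatic transcripts were left out. Rps12 lies at chr10:23785183-23787275 (GRCm38, minus strand), hosts 3 annotated small nucleolar RNA genes and has 24 pseudogenes that bear its name, so some of its reads may have been placed in copies. The copy Rps12-ps10 was itself listed and 3.2-fold higher in KO, at low means of 5.02 in flox and 16.1 in KO.

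Other small-subunit proteins were higher by smaller folds and with some overlap. Rps15a, a core protein of the small subunit, ran from 998.0 through a median of 1455.4 to 2063.9 in flox and from 1742.7 through 2192.2 to 2724.0 in KO. Its fold was 1.49, and 2 flox libraries reached into the KO range. Rps26, which lines the exit channel of the message, ran from 2002.5 through 3005.6 to 3924.3 in flox and from 3488.2 through 4354.3 to 5539.3 in KO. Its fold was 1.5, again with 2 flox libraries in the KO range. Rps6, the substrate of the S6 kinases, had a mean of 3549 ± 761 (SD, n = 9) in flox and 4957 ± 739 (SD, n = 7) in KO. Its log2 difference was 0.50 ± 0.13 (SE), with an adjusted p of 0.0271 in limma. Rps27, a zinc-finger protein of the small subunit, ran from 609.4 to 2065.8 in flox and from 1470.7 to 3223.6 in KO, a fold of 1.75. Rps3a1 had the highest level per length of all cytosolic members, 5251 normalised counts per kb of gene length, and a fold of 1.38 with an adjusted p of 0.0617 in limma. Rps19bp1, whose product binds Rps19 and is not a subunit, had the lowest level, 133 per kb, and a fold of 1.32.

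The large-subunit members shared this direction with 1 exception. Rpl29 ran from 1377.8 through 1758.7 to 2308.7 in flox and from 2193.0 through 2386.1 to 2983.8 in KO, and flox 9 alone reached into the KO range. Its means were 1789 ± 301 (SD, n = 9) and 2502 ± 311 (SD, n = 7), with a log2 difference of 0.49 ± 0.10 (SE) and an adjusted p of 0.0117 in limma. Rpl26, at the mouth of the peptide exit tunnel, ran from 1557.7 through 2265.3 to 2835.7 in flox and from 2679.4 through 3086.0 to 3767.1 in KO. Its fold was 1.43, and 2 flox libraries lay in the KO range. Rpl17, a protein of the exit tunnel wall, ran from 436.1 through 562.7 to 795.9 in flox and from 756.7 through 898.7 to 1844.2 in KO. The highest value was that of KO 1, and the log2 difference was 0.73 with all libraries and 0.58 without KO 1. Rpl17 has 11 named pseudogenes, of which Rpl17-ps3 was itself listed and 1.76-fold higher, so reads of the gene and its copy may have been mixed.

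The remaining large-subunit members had folds between 1.2 and 1.47. Rpl12, at the base of the stalk that binds elongation factors, had a fold of 1.47, and Rpl5, which carries the 5S RNA, a fold of 1.35. Rpl7 had a fold of 1.27. These 3 passed limma, with adjusted p-values of 0.0387, 0.0490 and 0.0357. Rpl10, placed late in the making of the large subunit, had a fold of 1.2, Rpl3, near the catalytic centre, 1.34, Rpl14 1.39 and Rpl36a 1.39. Their adjusted p-values in limma were 0.0526, 0.0617, 0.0654 and 0.0832. In each of the 17 higher cytosolic members all 7 KO libraries lay above the flox median. Members of the other families, such as Eif3m and Mrps30, did so too. The listing favours such genes, and how many of all listed genes did so was not counted, so nothing is read from it.

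Rpl7l1, a paralogue of Rpl7 that is not a standard subunit, was the lower member. Its flox libraries ran from 764.0 through 779.1 to 850.5 and its KO libraries from 591.2 through 697.1 to 740.0. The groups did not overlap, as was the case for 130 of the listed genes that were lower in KO (5.33%). The log2 difference was -0.24 ± 0.06 (SE), with an adjusted p of 0.0318 in limma, and it was not called lower with TMM scaling or quantile normalisation.

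**Figure D2:**
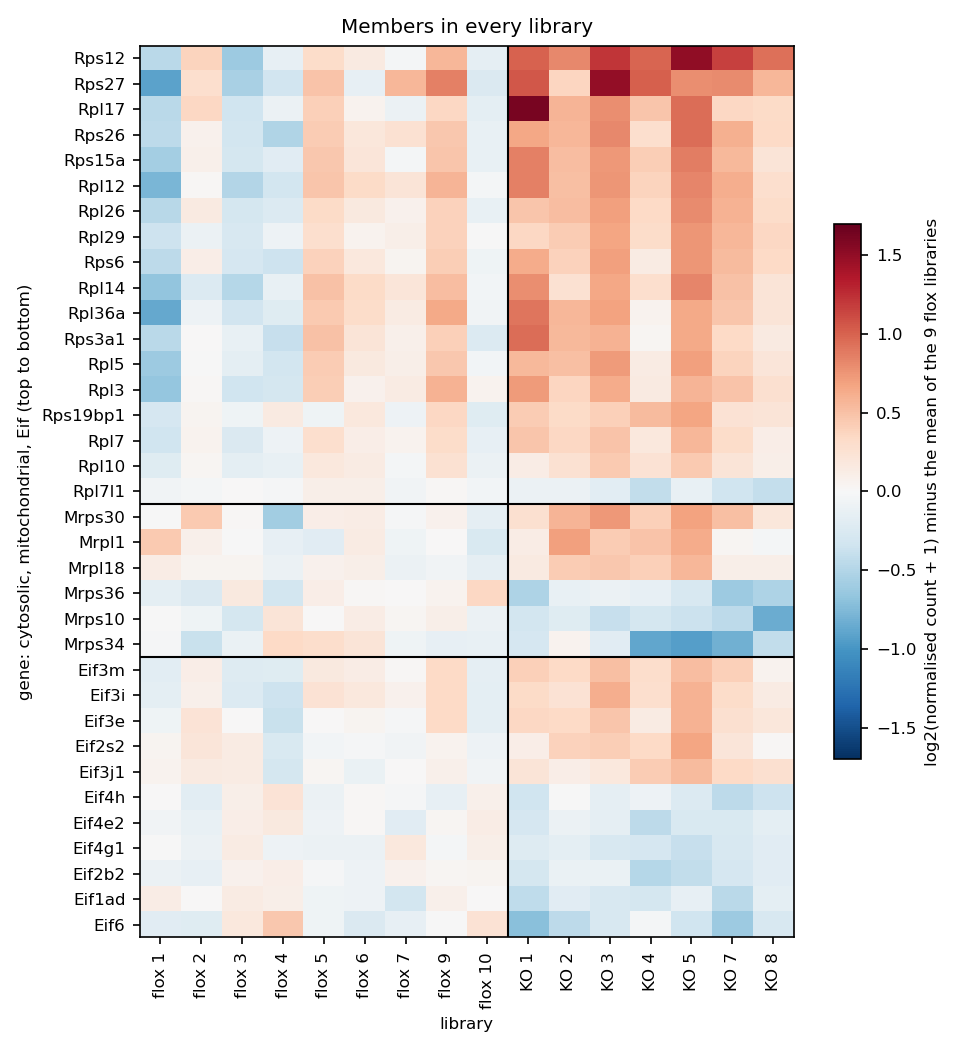
Each row is a member and each column a library, and the colour is log2(normalised count + 1) minus the mean of the 9 flox libraries, on a scale to 1.7 in each direction. Most cytosolic rows are red to pale red in KO and in flox 5 and 9 and blue in flox 1, 3 and 4, with Rpl7l1 as the exception, while the lower Eif rows are pale blue in KO under this scaling.

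The mean level of the cytosolic subunits varied from library to library within the groups too. How closely the single subunits moved together was not measured. Over the 16 listed members that are subunits (without Rpl7l1 and Rps19bp1), the mean log2 level was 11.03 ± 0.34 (SD, n = 9) in flox and 11.59 ± 0.20 (SD, n = 7) in KO. Flox 1, 3 and 4 were lowest at 10.48, 10.70 and 10.79, and flox 5 and 9, at 11.42 and 11.51, lay inside the KO range of 11.34 to 11.82. The 5 flox libraries with pancreatic transcripts ran from 10.79 to 11.51 and the other 4 from 10.48 to 11.42. The flox libraries alone thus spanned more than the distance between the means of the groups.

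The libraries lowest in subunit transcripts were also lowest in transcripts of dividing cells. Of 20 markers of proliferating crypt cells 13 were listed, all higher in KO, and their summed level ran from 968 to 3061 normalised counts in flox and from 2443 to 5181 in KO. Flox 1, 3 and 4, lowest for the subunits, were lowest for these markers as well, with means of 5.95, 5.95 and 6.30 on the log2 scale. KO 1 and KO 3 were highest for the markers, at 8.27 and 7.91, and both had a subunit mean of 11.78. The orders were not the same: KO 5 had the highest subunit mean, 11.82, at a marker mean of 7.64, and flox 7, at 7.30, was above KO 2 and KO 4 for the markers (7.23 and 7.16) but below every KO library for the subunits (11.14). With the marker mean as a covariate in limma, chosen after seeing the data, the median log2 difference of the 18 cytosolic members was 0.09 in place of 0.50, 12 of them were higher, and 0 passed. That fit called 8 of all 2339 listed genes. At an unadjusted p under 0.05 it left 943 of them, with 2 of the 18 cytosolic members, 6 of the 6 mitochondrial members and 4 of the 11 Eif genes. Marker level and genotype went together, and their parts in the cytosolic result cannot be told apart. In tissue RNA, more cells of a type and more RNA per cell cannot be told apart either.

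**Figure D3:**
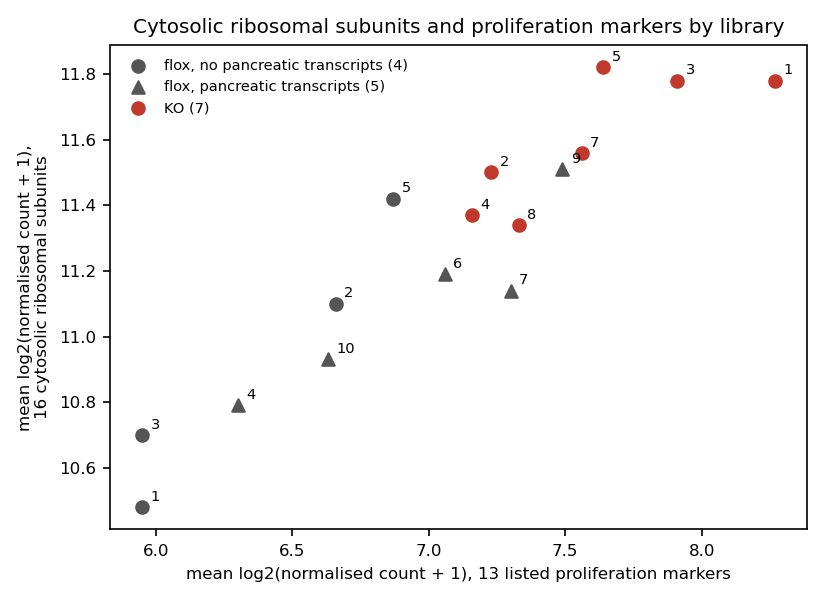
The mean log2(normalised count + 1) of the 16 cytosolic subunits (vertical axis) is plotted against that of the 13 listed proliferation markers (horizontal axis), 1 point per library with its number. The KO libraries lie at 7.16 or above on the horizontal axis and at 11.34 or above on the vertical axis, and flox 9 lies among them.

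The listed markers of cells outside the epithelium were also higher in KO. Of 75 markers of lymphocytes, myeloid cells, stroma and endothelium 13 were listed (17.3%), beside 14.8% of all genes the authors adjusted over. All 13 were higher in KO. Their mean log2 level was 4.64 to 6.09 in flox and 5.29 to 7.29 in KO, highest in KO 1. Most were low genes, though Ptprc ran from 344 to 1097 in flox and from 426 to 1398 in KO. In the lowest range of mean counts given above, 863 of 991 listed genes were higher (87.1%). Whether these 13 markers differed beyond what their level and the listing give was not tested. Their summed levels in flox and KO ran from 564 to 1439 and 665 to 1892 for the 5 listed T and NK cell markers, from 48.4 to 208 and 64.5 to 576 for the 2 of B and plasma cells, from 17.2 to 58.3 and 44.2 to 163 for the 2 of myeloid and mast cells, and from 97.9 to 434 and 166 to 1310 for the 4 of stroma and endothelium. The collagen-binding proteoglycan gene Lum was the 1 of these 13 found at 0, in 5 flox libraries and 1 KO library. With this mean as a covariate in limma the cytosolic median log2 difference was 0.40, with 17 of 18 members higher, while 0 members of any family passed. That fit called 7 of all 2339 listed genes. At an unadjusted p under 0.05 it left 713 of them, with 8 of the 18 cytosolic members, 4 of the 6 mitochondrial members and 5 of the 11 Eif genes. The 13 markers were listed because they differed between the groups, so this covariate and genotype cannot be told apart.

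The annotated starts of these genes were read for a feature that ribosomal protein messages are known for. Their messages usually begin with an unbroken run of pyrimidines, the terminal oligopyrimidine tract, through which mTORC1 and Larp1 control their translation. The stretches below, from RefSeq (GRCm38.p6), hold 30 bases on each side of the annotated start, read along the gene, with runs of at least 8 C or T in capitals. They were chosen to show starts with and without a run in both directions. A run may lie before the annotated start, as in Eif3m, or some bases after it, as in Rps12 and Eif2b2. It is thus not shown to be the tract with which the message begins. Of the cytosolic members, Rps12, Rps6, Rps26 and Rpl14 were higher with a run, Rps3a1 was higher without one and Rpl7l1 was lower without one. Of the Eif genes, Eif3m was higher with a run, Eif3j1 higher without, Eif4g1 lower without and Eif2b2 lower with one.
Rps12, chr10:23787180-23787239, minus strand: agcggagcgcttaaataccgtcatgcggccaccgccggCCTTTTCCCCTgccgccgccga
Rps6, chr4:86857338-86857397, minus strand: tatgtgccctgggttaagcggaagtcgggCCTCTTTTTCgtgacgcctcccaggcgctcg
Rps26, chr10:128626477-128626536, minus strand: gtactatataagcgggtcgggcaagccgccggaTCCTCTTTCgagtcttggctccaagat
Rpl14, chr9:120571487-120571546, plus strand: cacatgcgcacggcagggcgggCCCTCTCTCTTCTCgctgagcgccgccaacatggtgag
Rps3a1, chr3:86142639-86142698, minus strand: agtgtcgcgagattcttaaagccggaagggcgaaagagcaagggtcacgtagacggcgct
Rpl7l1, chr17:46782627-46782686, minus strand: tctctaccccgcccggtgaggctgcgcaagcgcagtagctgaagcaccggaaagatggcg
Eif3m, chr2:105016998-105017057, minus strand: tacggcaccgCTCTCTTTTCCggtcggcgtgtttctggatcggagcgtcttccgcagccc
Eif3j1, chr2:122028550-122028609, plus strand: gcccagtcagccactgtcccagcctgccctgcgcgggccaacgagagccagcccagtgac
Eif4g1, chr16:20672697-20672756, plus strand: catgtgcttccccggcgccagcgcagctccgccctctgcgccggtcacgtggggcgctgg
Eif2b2, chr12:85219451-85219510, plus strand: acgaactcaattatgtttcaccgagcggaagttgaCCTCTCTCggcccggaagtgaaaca

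A run of at least 8 C or T within 50 bases on either side of the start, on the gene's own strand, occurred in 11 of the 14 listed cytosolic members with a promoter entry (78.6%) and in 52 of 63 annotated cytosolic ribosomal protein genes (82.5%). Listed and annotated genes of this family thus had it in like shares. By direction, it occurred in 11 of 13 higher cytosolic members and not in the lower one, in 1 of 3 higher and 2 of 5 lower Eif genes, and in 1 of 3 higher and 1 of 2 lower mitochondrial members, and these numbers are too small to compare directions. It occurred in 2 of 5 listed mitochondrial members, in 3 of 8 listed Eif genes and in 6405 of 16522 promoters of protein-coding genes (38.8%). The letters CGGAAG, searched on both strands over the 300 bases from 250 before to 50 after the start, were found in 11 of 14 listed cytosolic members, in 42 of 63 annotated ones (66.7%) and in 24.2% of all promoters. ATGGCGG was found in 2 of 14 listed cytosolic members and in 6.2% of all promoters, and the matches of these 2 motifs did not overlap in any member. Of the 35 members 27 had an entry, and Rpl29, Rpl3, Rpl7, Rpl17, Eif3e, Eif3i, Eif6 and Mrps34 had none. A match describes the letters of the window only.

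In the annotation, small nucleolar RNA genes lay within 7 of the 18 listed cytosolic members (38.9%) and within 21 of the 70 that were not listed. Pseudogenes named after the parent were annotated for 16 of the 18 listed members and for 41 of the 70 others. The table also listed 8 pseudogenes named after cytosolic ribosomal proteins, 7 higher and 1 lower (Rps18-ps3). Among them Rpl3-ps1 was 1.37-fold higher, beside 1.34-fold for its parent Rpl3. How reads that match a gene and its copies were counted is not stated in the sources used here, so these values are uncertain.

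The mitochondrial ribosome had no common direction. Mrps30, which sits in the large subunit despite its name, ran from 127.6 through 194.5 to 260.9 in flox and from 219.8 through 275.6 to 322.4 in KO, a fold of 1.39. Flox 2 alone reached into the KO range. Mrpl18, of the large subunit, ran from 523.5 through 596.8 to 634.8 in flox and from 619.4 through 765.3 to 854.7 in KO, a fold of 1.25. Its gene overlaps Tcp1, which was also listed, and without strand their reads cannot be told apart. Mrpl1, also of the large subunit, ran from 201.3 through 238.1 to 326.8 in flox and from 235.5 through 324.4 to 391.0 in KO, a fold of 1.28 with an adjusted p of 0.0942 in limma. Without flox 4, 6, 7, 9 and 10 the folds of these 3 were 1.27, 1.19 and 1.2.

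The 3 lower members bore small-subunit names. Mrps10 (chr17:47368887-47381417, GRCm38, plus strand) ran from 176.3 through 218.6 to 251.7 in flox and from 120.4 through 168.5 to 187.6 in KO, lower by 1.32-fold. KO 8 was lowest, and flox 3 alone lay in the KO range. The log2 difference was -0.41 ± 0.10 (SE), with an adjusted p of 0.0219 in limma, and it was the 1 mitochondrial member that passed limma whichever single library was left out. Mrps34, which the small subunit needs for its stability, ran from 353.5 through 437.9 to 583.2 in flox and from 239.8 through 343.3 to 481.5 in KO, and 6 flox libraries lay inside the KO range. Its gene overlaps Nme3 and Mapk8ip3. Mrps36, an adaptor of the 2-oxoglutarate dehydrogenase complex rather than a ribosomal subunit, ran from 578.7 through 727.7 to 923.9 in flox and from 468.8 through 597.7 to 669.9 in KO, with an adjusted p of 0.0566 in limma. Per kb of gene length Mrps36 had the highest level of the mitochondrial members (520) and Mrps10 the lowest (24.1). Over the 3 higher genes the mean log2 level was 8.23 ± 0.16 (SD, n = 9) in flox and 8.61 ± 0.21 (SD, n = 7) in KO, and over the 3 lower genes it was 8.71 ± 0.12 and 8.29 ± 0.20.

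Within the Eif genes the eIF3 subunits were higher. Eif3m ran from 425.5 through 503.0 to 625.9 in flox and from 518.1 through 654.8 to 711.0 in KO, and 4 flox libraries lay in the KO range. Its means were 500 ± 70.2 (SD, n = 9) and 641 ± 65.2 (SD, n = 7), a fold of 1.28, with an adjusted p of 0.0242 in limma. Eif3e, a regulatory subunit, ran from 552.5 through 718.3 to 904.3 in flox and from 788.3 through 908.9 to 1079.3 in KO, a fold of 1.26. Eif3i, a subunit that docks on the core through Eif3b, ran from 571.8 through 764.0 to 922.5 in flox and from 802.8 through 908.3 to 1116.2 in KO, a fold of 1.28. Eif3j1, a loosely bound subunit with the lowest level per length of the Eif genes (63.8 per kb), ran from 273.4 through 344.3 to 373.2 in flox and from 363.9 through 406.1 to 489.2 in KO, a fold of 1.23. The 4 genes passed limma with adjusted p-values of 0.0242 to 0.0407, and their mean log2 level was 9.09 ± 0.17 (SD, n = 9) in flox and 9.43 ± 0.13 (SD, n = 7) in KO. With the mean of the proliferation markers as a covariate, the log2 differences of Eif3i, Eif3m and Eif3e were 0.08, 0.12 and 0.16. In the main fit they were 0.36, 0.36 and 0.34. Eif3j1 was at 0.31 with the covariate and 0.30 without it. Marker level and genotype cannot be told apart here either. In the annotation eIF3 names numbered 14, so 10 of them were not listed.

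Of the eIF2 and eIF2B genes 1 was higher and 1 lower. Eif2s2, the beta subunit of eIF2, ran from 727.9 through 860.5 to 1007.4 in flox and from 883.4 through 1100.3 to 1392.4 in KO, a fold of 1.25 with an adjusted p of 0.0414 in limma. Eif2b2, the beta subunit of eIF2B, ran from 298.4 through 336.0 to 356.5 in flox and from 234.3 through 269.4 to 304.2 in KO, lower by 1.21-fold with an adjusted p of 0.0327 in limma. Against the 4 flox libraries without pancreatic transcripts the ratios of KO to flox were 1.17 and 0.86. With TMM scaling or quantile normalisation no Eif gene was called lower, beside 189 and 163 of all 2339 genes.

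The 3 listed Eif4 genes, of 16 annotated under that name, and Eif6 were lower as deposited, and the other 13 were not listed. Eif4g1 (chr16:20668313-20692884, GRCm38, plus strand), the scaffold that joins the cap-binding protein to eIF3, held 6581.9 to 7972.9 in flox with a median of 6849.3, and 5358.5 to 6289.7 in KO with a median of 5812.5. The groups did not overlap, and flox 7 and flox 3 were highest. The means were 7052 ± 550 (SD, n = 9) and 5890 ± 309 (SD, n = 7), lower by 1.2-fold, with an adjusted p of 0.0225 in limma and a log2 difference of -0.26 ± 0.06 (SE) that became 0.09 with quantile normalisation. Eif4e2, a cap-binding protein that represses translation, ran from 961.0 through 1116.4 to 1233.6 in flox and from 808.0 through 920.7 to 1027.4 in KO, lower by 1.18-fold, and its log2 difference was 0.04 with quantile normalisation. Eif4h, an RNA-binding partner of the eIF4A helicase, ran from 5957.1 through 6744.2 to 7864.4 in flox and from 4919.7 through 5734.4 to 6698.4 in KO. Its adjusted p was 0.0734 in limma, and its log2 difference was -0.23 as deposited and 0.13 with quantile normalisation. The same direction held for 712 of the 768 listed genes whose mean reached 1000.

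Eif6, which keeps the large subunit from joining the small one too early, had the highest level per length of the Eif genes, 1936 per kb. It ran from 4860.0 through 5454.6 to 7873.5 in flox and from 3531.3 through 4559.0 to 5614.3 in KO, lower by 1.31-fold. The groups overlapped, with 5 flox libraries in the KO range, and the adjusted p was 0.0440 in limma. Eif1ad, a nuclear protein with an eIF1A-like domain, ran from 1105.4 through 1379.6 to 1515.7 in flox and from 997.8 through 1132.3 to 1244.9 in KO, lower by 1.22-fold, and its log2 difference was 0.04 with quantile normalisation. Flox 7 was the lowest flox library and the 1 that lay in the KO range.

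**Figure D4:**
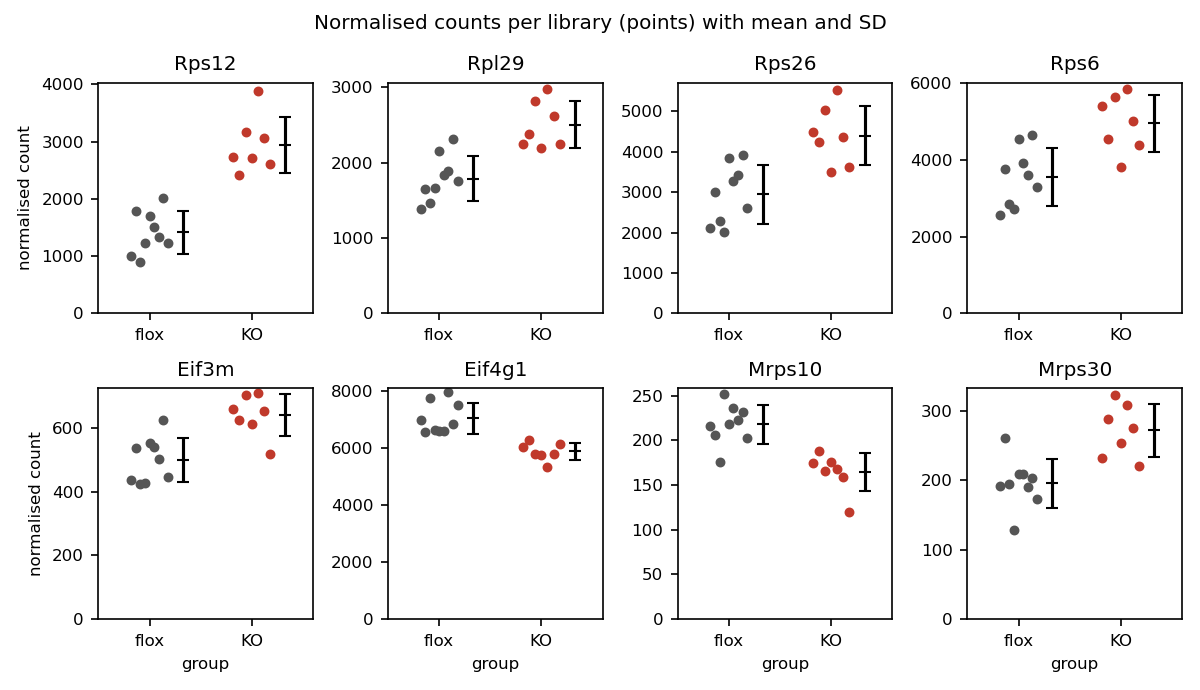
Normalised counts (vertical axes, from 0) are shown per library (points) for 8 members in the 9 flox and 7 KO libraries, with the mean and SD beside each group. Rps12 and Eif4g1 show no overlap between the groups, while the other 6 overlap in at least 1 library; the direction of Eif4g1 changed with quantile normalisation.

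Genes that make ribosomes or regulate translation were read beside the members. Of 110 ribosome biogenesis genes 21 were listed (19.1%), 19 higher and 2 lower, with a median of 0.63 in the log2 values of the authors' deposited table. The higher genes were Npm1, Nop58, Utp4, Utp20, Rrp15, Heatr1, Gnl3, Rsl1d1, Rsl24d1, Mrto4, Wdr43, Wdr75, Mphosph10, Noc2l, Noc3l, Urb1, Ddx10, Nol10 and Pwp2, and limma called 8 of them. Among these Wdr75, of the small-subunit processome, went from 48.6 ± 13.9 (SD, n = 9) to 88.3 ± 26.8 (SD, n = 7), a fold of 1.82, and Nop58, of the methylation complex, had a fold of 1.48. Npm1, the abundant nucleolar chaperone, had a fold of 1.40 with an adjusted p of 0.0783 in limma. The lower genes were Sbds, which releases Eif6 from the large subunit, by 1.22-fold, and the helicase Ddx54 by 1.17-fold. In limma the median log2 difference of the 21 was 0.64, or 0.78 with TMM scaling and 0.15 with quantile normalisation. Under the last, Utp4, Ddx10 and Pwp2 were at -0.09, -0.01 and -0.08, Nol10 at 0.0 and Sbds at 0.03, while TMM scaling turned none of the 21.

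Of 8 cytosolic ribosomal proteins whose names fall outside the rule, Rpsa was listed, with a fold of 1.45 and an adjusted p of 0.0180 in limma. Of 20 elongation, release and recycling factors Abce1, which splits ribosomes, and Pabpc1, the poly(A)-binding protein, were listed, with folds of 1.35 and 1.21. Limma called Abce1 of these 2. Of 31 genes of the mTORC1 pathway 6 were listed. The S6 kinase Rps6kb1 was higher by 1.19-fold, and Sesn2, Rptor, Lamtor2, Akt1s1 and Lamtor1 were lower by 1.3, 1.27, 1.26, 1.23 and 1.19-fold. Sesn2, an inhibitor of the pathway, did not overlap between the groups, with 147.6 as its lowest flox value and 147.5 as its highest KO value. Rptor, by contrast, is a core part of mTORC1, so the lower genes included an activator and an inhibitor. Limma called Rps6kb1, Sesn2, Rptor and Akt1s1, and neither TMM scaling nor quantile normalisation turned the direction of any of the 6, though their median went from -0.31 to -0.17 and -0.07. The kinase-like gene Rps6kc1, also left out by the rule, was lower by 1.29-fold.

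Of 18 targets of the integrated stress response, which eIF2 phosphorylation sets off, 5 were listed. Slc7a11, Phgdh, Psat1 and Mthfd2 were higher by 4.2, 2.1, 1.87 and 1.69-fold, of which limma called Slc7a11, and Trib3 was lower by 1.28-fold. Slc7a11 was low, at 1.9 to 64.5 in flox and 12.1 to 134.7 in KO, and its fold was 7.14 without flox 2 and 2.48 against the 4 flox libraries without pancreatic transcripts. Phgdh reached 249.8 in KO 1, and its fold was 1.44 without that library. Of 22 cytosolic tRNA synthetase genes Iars was listed, with a fold of 1.28 and an adjusted p of 0.106 in limma. Of 17 mitochondrial synthetases Lars2 was lower by 2.30-fold and Wars2 higher by 1.38-fold, though at -0.11 on the log2 scale with quantile normalisation. The ratio of KO to flox for Lars2 was 0.62 against the 4 flox libraries without pancreatic transcripts and 0.43 against all 9. Of 36 mitochondrial translation and assembly genes Lrpprc, Ptcd3 and Fastkd2 were listed, with folds of 1.31, 1.24 and 1.46, and limma called Lrpprc. None of the 13 respiratory chain genes of mitochondrial DNA was listed.

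The calls depended on single libraries, in the families and over all listed genes. Of the 13 cytosolic members that passed limma, Rps12, Rpl29, Rpl17, Rpl26, Rps15a and Rps26 passed whichever single library was left out, and of the 10 Eif genes 0 did so. How many of all listed genes did so was not counted, so no difference between families is read from this. Without flox 3, flox 10, KO 1, KO 5 or KO 7 the cytosolic calls were 6, 7, 7, 7 and 7 in place of 13. The calls over all listed genes were then 615, 646, 645, 622 and 518 in place of 1269. Without flox 10, KO 5 or KO 7 the mitochondrial calls were 2, 1 and 2 in place of 4. The Eif calls were 6, 2, 4, 2, 4, 5, 1 and 0 in place of 10 without flox 1, flox 3, flox 4, flox 10, KO 1, KO 4, KO 5 and KO 7. Over all listed genes the calls without flox 1, flox 4 and KO 4 were 989, 838 and 865. Without the 5 flox libraries with pancreatic transcripts, limma called 11 of all 2339 listed genes, with 1 cytosolic member and 0 of the others. An unadjusted p under 0.05 was then found for 1703 of all listed genes and for 18, 5 and 8 members. The median log2 difference of the cytosolic members was then 0.60, with 17 of 18 higher.

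**Figure D5:**
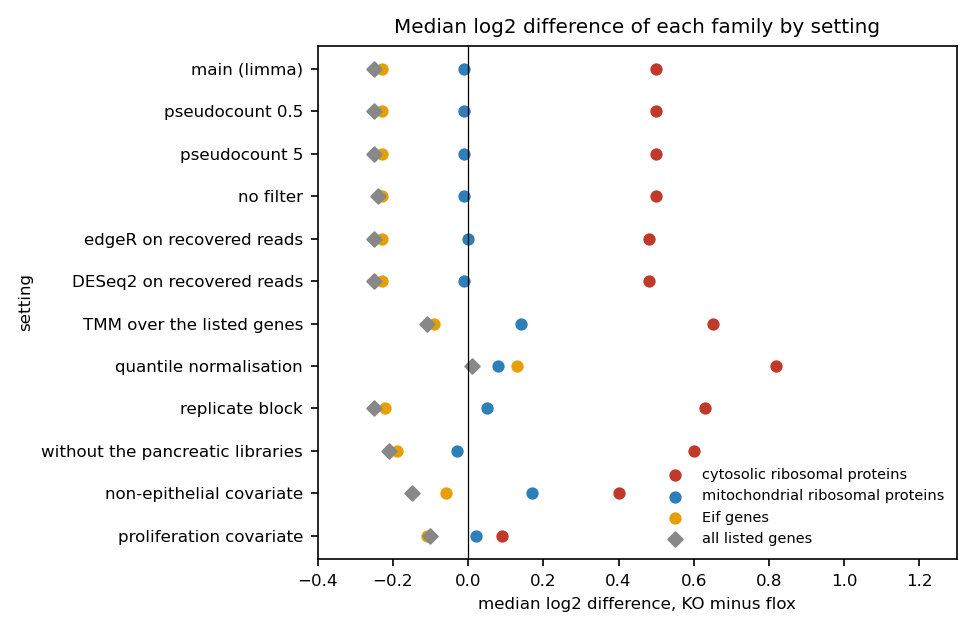
The median log2 difference of KO minus flox (horizontal axis) is shown for each family and for all listed genes under 12 ways of fitting the data (vertical axis). The cytosolic median lay between 0.40 and 0.82 in all but the fit with the proliferation covariate, where it was 0.09, while the Eif median ran from -0.23 to 0.13, its value with quantile normalisation.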

How the data were processed

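The submitters' processing notes name the aligner HISAT2 (2.0.5), the counter featureCounts (1.5.0-p3) and the test DESeq2 (1.20.0), with GRCm38 (mm10) as the genome, and no settings. The deposited columns hold signal, each value being a read count over the size factor of its library: 100% of nonzero values came out whole within 0.0001 reads, with size factors of 0.878 to 1.38. An automatic check could not test this for KO 1 and KO 3. The authors' log2 fold changes, their p-values and adjusted p-values, and gene length come from the deposited table. All 2438 deposited adjusted p-values were reached again by the Benjamini-Hochberg method over 16488 genes. No total depth is known, since reads in other genes were not used here.

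limma 3.58.1 in R 4.3.3 (trend, robust) took log2(normalised count + 1) of 2339 listed genes, those whose mean was 10 or more, and its two-sided p-values were adjusted over 16488 genes with unlisted genes at a p of 1. A fold on this scale understates changes of low genes. Folds in the text are ratios of group means. edgeR 4.0.16 and DESeq2 1.42.0 on recovered reads, other scalings and pseudocounts, covariates, a replicate block and left-out libraries were alternatives. The scripts were tested on simulated data. Members were matched by name to GENCODE release 21 of the mouse (M21), 35 of 35. The members, the gene lists and the tests were chosen with earlier results of these data known. Named are Ephb4, in each family and direction the 6 members with the smallest deposited adjusted p, those highest and lowest per kb, members without overlap and the listed genes of each list. Other members (Rps27, Rps6 and the rest) were named to account for all. Of the markers for goblet, Paneth, enteroendocrine and tuft cells 6 of 17 were listed, all lower in KO.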

Additional observations from a re-analysis of the deposited data

Results flagged for a closer look

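Of 72 groups of values tested for a library far from the rest, 4 stood out, and chance gives about 1 in 20. In KO, Ephb4 was 84.7 normalised counts in KO 1, and the next highest library held 37.3. Rpl17 was 1844.2 in the same library, with 1167.8 next, so the KO mean of Rpl17 leans on it. Mrps10 was 120.4 in KO 8, below the next lowest value of 159.5. Mrpl1 was 326.8 in flox 1, and the next highest flox library held 263.6.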

How the results depend on the processing

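Over all listed genes, cytosolic, mitochondrial and Eif members, limma called 1269, 13, 4 and 10, and medians were 0.50, -0.01 and -0.23 for the families. Pseudocounts of 0.5 and 5 and no filter kept the direction and side of the threshold of all 35 members. Quantile normalisation called 355 of all, 2 mitochondrial and 5 Eif genes, with a cytosolic median of 0.82 and an Eif median of 0.13. TMM scaling called 912 of all and 5 Eif genes, with medians of 0.14 (mitochondrial) and -0.09 (Eif). DESeq2 called 2112 of all, which nearly repeats the authors' selection. The non-epithelial covariate called 7 of all and 0, 0 and 0 members, with medians of 0.17 (mitochondrial) and -0.06 (Eif). Leaving out the 5 pancreatic flox libraries gave 11 of all and 1, 0 and 0 members. Without Mrps36 and Eif1ad the mitochondrial and Eif medians were 0.31 and 0.04.

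Added after seeing the data, the proliferation covariate called 8 of all and 0, 0 and 0 members, with medians of 0.09 (cytosolic) and -0.11 (Eif). It turned Rpl12 (-0.005), Rps3a1 (-0.00011), Rpl14 (-0.07), Rpl3 (-0.06) and Rpl36a (-0.11). Quantile normalisation turned Eif4g1 (0.09), Eif1ad (0.04), Eif4e2 (0.04) and Eif4h (0.13). edgeR called 1315 of all, and without KO 1 and KO 3 it called 374 of all and 2, 0 and 1 members. The causes were not tested.

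For the replicate block, same-numbered libraries showed no common deviation (correlations -0.431 to 0.371, and 1 of 6 numbers matched its own best). The labels do not say what equal numbers mean, and 6 correlations over listed genes cannot settle whether they pair the libraries. Blocked on the 12 libraries with shared numbers, limma called 9 of all, 1 cytosolic, 0 mitochondrial and 0 Eif genes, and Ephb4 was -2.30 (adjusted p = 0.0661). The same 12 libraries without the block gave 355 of all, 11, 0 and 2, so fewer libraries accounted for part of the loss. It changed no direction among the members.

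Leaving out 1 library in turn, the calls ran from 518 to 1458 of all, 6 to 18 cytosolic, 1 to 5 mitochondrial and 0 to 10 Eif, the medians from 0.43 to 0.56, -0.04 to 0.03 and -0.26 to -0.19, and Ephb4 from -2.73 to -2.40. For all listed genes the calls were 615, 838, 646, 645, 622 and 518 without flox 3, flox 4, flox 10, KO 1, KO 5 and KO 7.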
